A study of Homo sapiens with 9 samples.

Results

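The 31 genes described here encode enzymes of cholesterol synthesis and fatty acid synthesis together with their main transcriptional regulators. They were chosen by name, with earlier results of these data known, from the 40332 gene rows of 1 count table. The list holds 4 genes of regulation and sterol transport, 19 of sterol synthesis and 8 of fatty acid synthesis and desaturation. RNA-seq was performed on wild-type cells of the human embryonic stem cell line H1, in 3 culture groups of 3 libraries each. In the first group, N2B27 medium contained EPZ-6438, which inhibits the histone methyltransferase EZH2, at 5 µM for 3 days. The second group was in N2B27, a serum-free basal medium, with no inhibitor, and the third in PXGL, a medium that maintains naive pluripotency. The titles of both N2B27 groups also carry the name PXGL. The sources used here do not give the time in N2B27 without inhibitor. Between the N2B27 groups, any difference in that time therefore cannot be told apart from the inhibitor. All libraries come from 1 cell line, and the labels leave unsaid whether replicates were separate cultures, so the p-values rest on the variation among these libraries and this may be only technical.

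Sterols are built from acetyl-CoA through mevalonate, isoprenoid diphosphates, squalene and lanosterol, whereas fatty acid synthesis carboxylates acetyl-CoA to malonyl-CoA and extends it to palmitate, which is then elongated and desaturated. Both branches are controlled by the sterol regulatory element-binding proteins SREBP-1 and SREBP-2, encoded by SREBF1 and SREBF2. When sterols are scarce, these membrane-bound factors leave the endoplasmic reticulum, are cleaved in the Golgi and enter the nucleus, and INSIG proteins hold them back when sterols are plentiful. In proliferating stem cells the pathways supply membrane lipids and isoprenoids.

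Promoter sequence was examined because most of these genes were lower with EPZ-6438 than in N2B27 and higher in N2B27 than in PXGL. RefSeq start sites on GRCh38.p14 gave 37 windows for 27 of the 31 genes, each with 250 bases before and 50 bases from the start. ACAT2, FDFT1, SQLE and FASN had no window. The letters TCACNCCAC, a form of the sterol regulatory element, were searched on both strands and stood in 1 of the 27 genes, SREBF2 itself, against 1.45% of the 11820 tested genes with a window. Other forms of the element were not searched, so a gene without these letters may still hold one. CCAAT, the box bound by NF-Y, was present on either strand in 21 of 27 (77.8%), against 43.1% of those tested genes. GGGCGG, a GC box, was present on either strand in 26 of 27 (96.3%), against 76%. Per window, TCACNCCAC stood in 2.7% of the 37 against 1.13% of all 35116 windows. CCAAT stood in 67.6% against 34.6% and GGGCGG in 89.2% against 45%. The background per window holds all genes, tested or not, and so differs from the background of tested genes above. By gene, 1.39%, 39.7% and 48.3% of all 27305 genes with a window held the letters, in the same order. These are matches of letters in short windows and not binding sites, and their part in the differences described here was not tested. The SREBF2 window is shown because it holds the sterol element letters. The FADS2 and HMGCS1 windows are shown because, of the genes without these letters, these had the smallest adjusted p with EPZ-6438 against N2B27. HMGCS1 and FADS2 have 2 windows each, and the one with more CCAAT matches is shown; the other has 0 in both genes. Each is written 5′ to 3′ on the gene's own strand, and capitals mark TCACNCCAC and CCAAT or its reverse complement ATTGG. The capitalised matches do not overlap.
SREBF2, chr22:41832855-41833154, plus strand: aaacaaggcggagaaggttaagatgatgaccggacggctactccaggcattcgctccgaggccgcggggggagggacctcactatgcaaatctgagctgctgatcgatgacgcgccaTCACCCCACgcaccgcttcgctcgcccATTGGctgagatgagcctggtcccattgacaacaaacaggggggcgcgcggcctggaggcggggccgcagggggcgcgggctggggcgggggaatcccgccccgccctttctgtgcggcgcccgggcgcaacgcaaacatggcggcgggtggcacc
HMGCS1, chr5:43313363-43313662, minus strand: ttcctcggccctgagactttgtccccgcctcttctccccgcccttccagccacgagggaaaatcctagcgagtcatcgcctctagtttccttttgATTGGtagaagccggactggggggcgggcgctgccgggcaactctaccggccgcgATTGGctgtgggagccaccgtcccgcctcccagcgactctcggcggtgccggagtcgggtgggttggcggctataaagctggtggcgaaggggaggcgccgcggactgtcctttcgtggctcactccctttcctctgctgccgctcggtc
FADS2, chr11:61816154-61816453, plus strand: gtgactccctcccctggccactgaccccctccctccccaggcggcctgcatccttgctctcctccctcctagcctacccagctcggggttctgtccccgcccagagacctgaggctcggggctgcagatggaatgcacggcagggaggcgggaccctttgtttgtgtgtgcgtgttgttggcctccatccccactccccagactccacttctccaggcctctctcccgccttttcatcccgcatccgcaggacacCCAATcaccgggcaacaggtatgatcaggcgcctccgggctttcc

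Library totals were 14482105 to 18358530 estimated read counts. Levels are given as CPM, counts scaled to library size with TMM factors, and 3 counts correspond to 0.164 to 0.211 CPM. All 31 genes passed the filter on low counts, which left 15179 genes. Differences were tested with edgeR's quasi-likelihood test over all 9 libraries, and a gene was called higher or lower when its Benjamini-Hochberg adjusted p over the 15179 genes was under 0.05. Fold changes are given on the log2 scale with their standard error. This was derived from the test, as the absolute log2 fold change divided by the square root of the F statistic. PXGL replicate 1 stood apart from its group: the chi-square per degree of freedom of its counts was 19.6 and 26.3 against the other PXGL libraries, against 2.57 to 3.66 in all other replicate pairs. Its deviation followed transcript length, with a Spearman rho of -0.696 across the 31 genes between exon length and the log2 difference from PXGL replicates 2 and 3. All 10 of the shortest members were higher in this library and 7 of the 10 longest were lower. Every comparison shares 1 estimate of the spread, so this library also enters the comparison of the N2B27 groups.

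Markers of pluripotency were present in all groups. The summed level of 6 core genes, POU5F1, NANOG, SOX2, LIN28A, SALL4 and TDGF1, was 3931 to 3985 CPM with the inhibitor, 4822 to 4908 CPM in N2B27 and 3402 to 3707 CPM in PXGL. Each of these genes had lower levels with the inhibitor than in N2B27. Relative to PXGL, POU5F1, NANOG and SOX2 had lower levels with the inhibitor, and LIN28A, SALL4 and TDGF1 higher. SOX2 had 69.6, 55.2 and 65.97 CPM with the inhibitor, 115, 112 and 122 CPM in N2B27 and 135, 132 and 130.4 CPM in PXGL. The sum of 6 naive genes was 1929 to 1970, 1954 to 1987 and 2258 to 2616 CPM in the same order. Their directions with EPZ-6438 against N2B27 were mixed: KLF17, SUSD2 and KLF4 were higher, DPPA5 and DPPA3 lower, and TFCP2L1 was not called. The 6 primed genes summed to 202 to 214 CPM with the inhibitor, 439.8 to 451 CPM in N2B27 and 26.9 to 27.4 CPM in PXGL. Of these, USP44, PTPRZ1, CD24 and SFRP2 were lower with EPZ-6438 than in N2B27, ZIC2 was 2.34-fold higher and DUSP6 was not called. The 8 hypoblast genes summed to 37.2 to 40.8, 24.5 to 27.4 and 13.1 to 14.4 CPM, with APOA1 and TTR at 0 in every library. Here GATA6 was 10.8-fold and GATA4 1.62-fold higher with EPZ-6438 than in N2B27, APOB was 2.15-fold lower, PDGFRA was not called and the other 4 were not tested. The 6 fibroblast genes summed to 84.4 to 88.2, 164 to 177 and 14.6 to 19.9 CPM, most of it collagen genes and THY1, while DCN was at 0 in both N2B27 groups and LUM and COL3A1 were near 0. THY1 alone had 124, 109 and 123 CPM in N2B27, the larger part of the sum there, against 0.767, 0.657 and 0.444 CPM in PXGL. The rise of this sum in N2B27 thus rests mostly on 1 gene. In hepatocytes, a cell type with strong lipid synthesis, ALB is a defining gene; here it did not exceed 0.11 CPM, and 4 hepatocyte genes together did not exceed 0.972 CPM. In bulk RNA, fewer cells of a type and less RNA per cell cannot be told apart, and the part of these markers in the lipid gene differences was not tested.

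Per kilobase of exon, SCD, the desaturase that makes oleic acid, had the highest level of the 31 genes in N2B27 at 278 ± 5.42 CPM per kb (SD, n = 3). HMGCS1, which forms HMG-CoA, followed at 194 ± 5.60 CPM per kb. ACLY at 93.7 ± 1.49 CPM per kb and FASN at 91.6 ± 1.30 CPM per kb did not differ beyond their spread, nor did FDFT1 at 76.2 ± 4.01 CPM per kb and FDPS at 75.0 ± 1.82 CPM per kb. The lowest levels per kb were those of TM7SF2 at 6.46 ± 0.820, MVK at 7.25 ± 0.256 and ACSS2 at 7.35 ± 0.543, which lay within each other's spread.

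**Figure D1:**
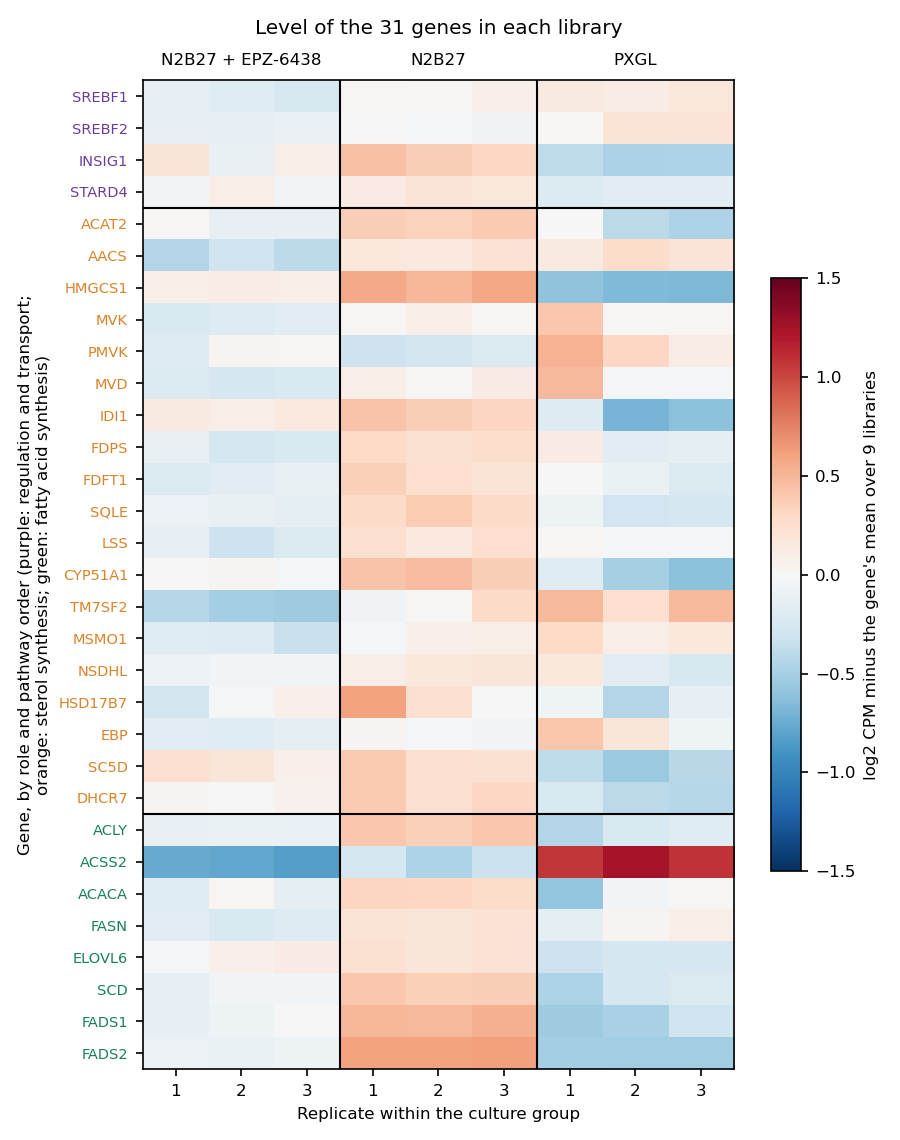
Level of each of the 31 genes in each of the 9 libraries, as log2 CPM minus the gene's mean over all libraries (colour scale, -1.5 to 1.5), with genes in pathway order down the page and libraries by culture group across it. Most sterol and fatty acid genes are highest in the 3 N2B27 libraries without inhibitor, whereas ACSS2 is highest in PXGL.

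With EPZ-6438, 20 of the 31 genes fell relative to N2B27 and none rose by edgeR's test, against 24.7% of all tested genes called in either direction, 10.6% lower and 14.2% higher. DESeq2 likewise called 20 lower and 0 higher, where it called 3895 of the 15179 tested genes, 54.5% of them higher. At an unadjusted p under 0.05 edgeR had 26 lower and 0 higher. The share of all tested genes at that looser threshold was not computed. Unadjusted counts, here and for the other lists below, therefore have no share to stand beside. Of the 31 estimates, 30 were below 0, with a median log2 fold change of -0.40, against a median of 0.01 over all tested genes. Among the 9642 genes with a mean of at least 10 CPM, a background added after the values were seen, 13.6% were called lower and 13.3% higher. The changes were small, from 1.17-fold lower for SREBF1 to 1.62-fold lower for FADS2 among the called genes. The groups did not overlap in 29 of 31 genes, against 46.4% of all tested genes. The exceptions were HSD17B7 and SC5D. The estimate above 0 was that of PMVK, phosphomevalonate kinase, at 0.23 ± 0.12 with adjusted p = 0.187. Without PXGL replicate 1, 27 of 31 genes were called lower, and the genes called over the whole table numbered 5771 in place of 3752.

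**Figure D2:**
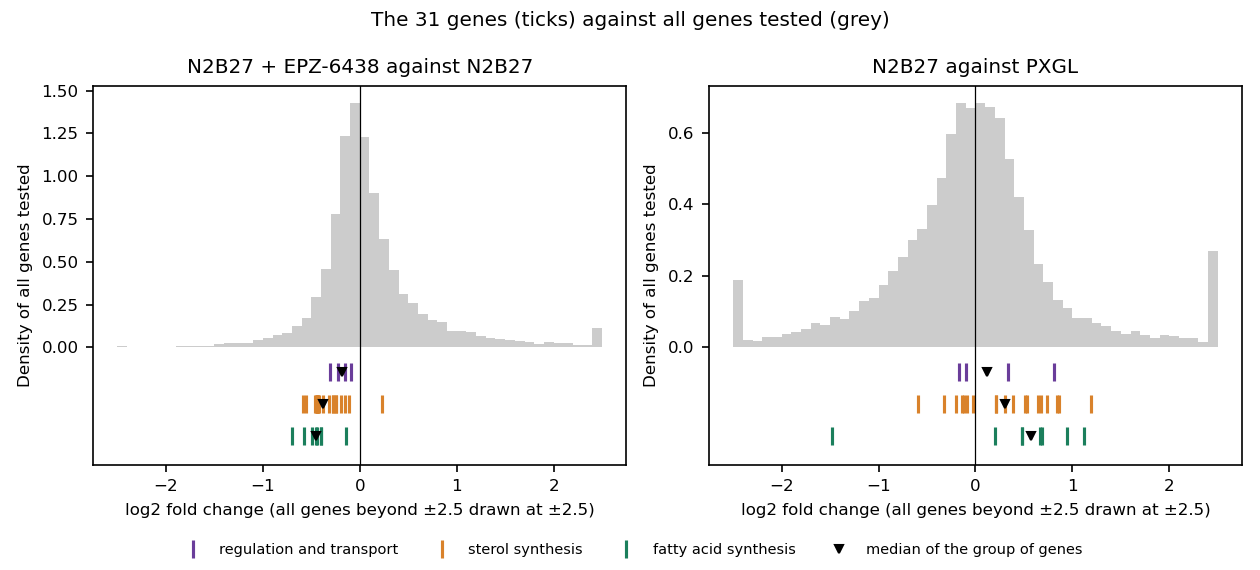
Log2 fold changes of all 15179 tested genes (grey density, values beyond ±2.5 drawn at the edge) with the 31 genes as coloured ticks by role and the median of each role as a triangle. With EPZ-6438 against N2B27 the ticks lie left of 0 except PMVK; in N2B27 against PXGL most sterol and fatty acid ticks lie right of 0, with ACSS2 far to the left.

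In N2B27 relative to PXGL, 20 of the 31 genes were higher, 3 were lower and 8 were not called, where 56% of all tested genes were called, 27.3% higher and 28.7% lower. Among genes with a mean of at least 10 CPM these shares were 31.6% higher and 29.7% lower. The 3 lower genes were SREBF2, PMVK and ACSS2. The median log2 fold change was 0.38 over the 31 genes and -0.03 over all tested genes. The levels did not overlap in 25 of 31 genes, against 60.8% of all tested genes. Cells with EPZ-6438 set against PXGL gave 12 genes higher, 12 lower and 7 not called, against 28.1% higher, 28% lower and 56.1% in all over the whole table. For this comparison 30% of the genes with a mean of at least 10 CPM were higher and 31% lower. Levels did not overlap in 24 of the 31 genes, against 60.7% of all tested genes. Without PXGL replicate 1, 21 genes were higher and 3 lower in N2B27 than in PXGL, and 14 were higher and 11 lower with EPZ-6438 than in PXGL. Calls rose over the whole table as well, to 9506 and 9452 of 15522 tested genes, from 8505 and 8515 of 15179. Of these 9506 and 9452 genes, 49.7% and 51.3% were higher. The medians over the 31 genes were then 0.41 and 0.10, against 0.38 and 0.08 with that library. Since the 3 comparisons share libraries, a high level in the N2B27 libraries enters both the lower values with inhibitor and the higher values against PXGL, and the estimates are given side by side without a measure of their agreement.

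**Figure D3:**
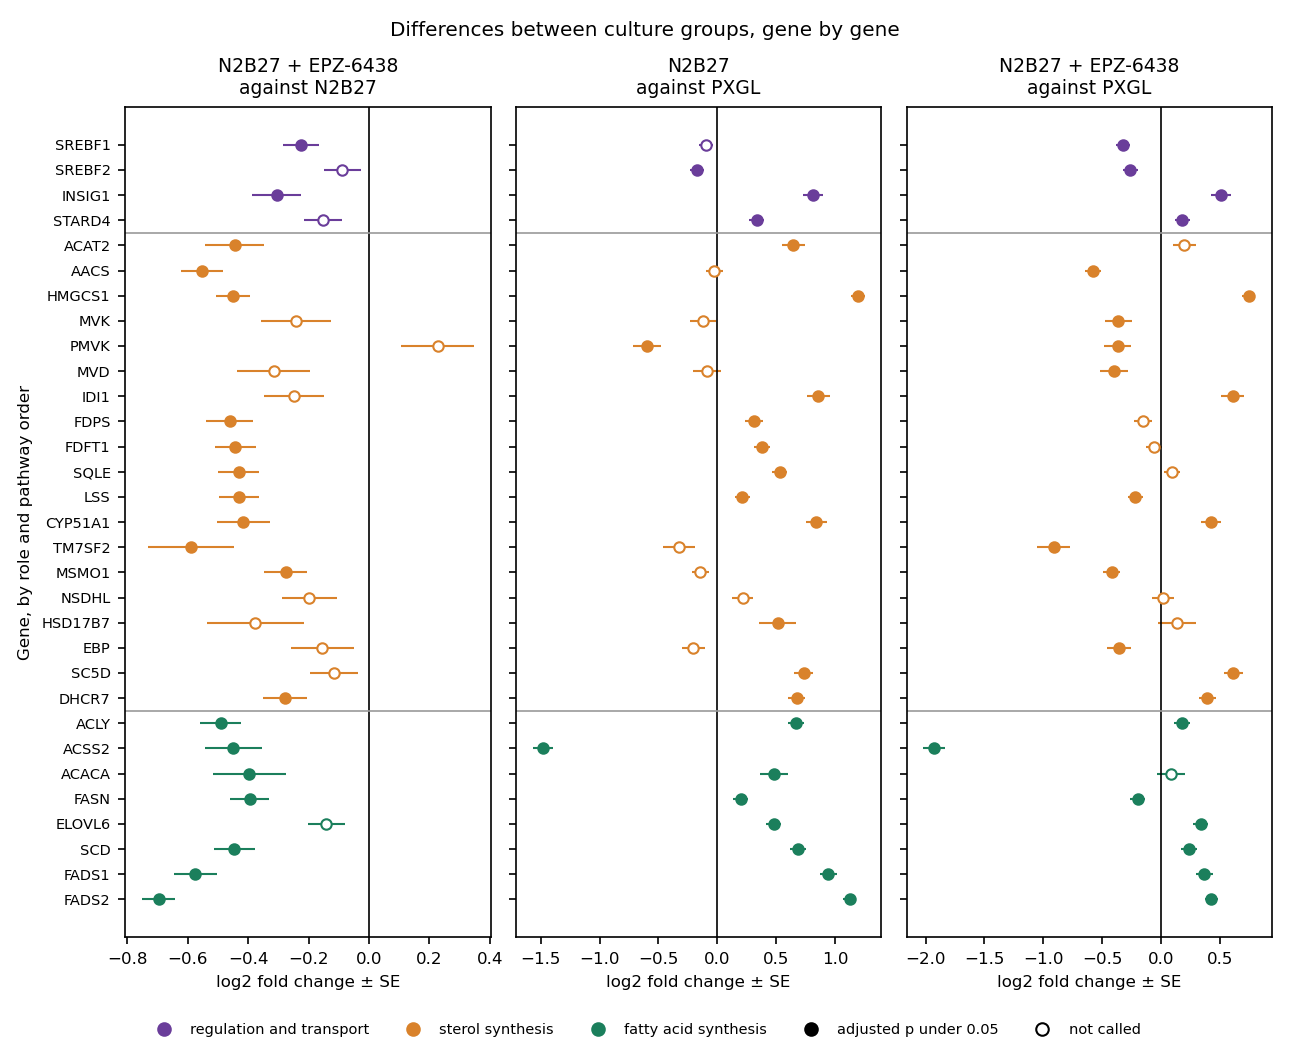
Log2 fold change with its standard error for each of the 31 genes in pathway order, in 3 panels with different horizontal scales for EPZ-6438 against N2B27, N2B27 against PXGL and EPZ-6438 against PXGL. Filled points have adjusted p under 0.05; in the first panel all 20 filled points lie below 0.

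Of the regulators, SREBF1, which encodes the factor that drives mainly fatty acid genes, had 127, 123 and 118 CPM with the inhibitor, 141, 143 and 147 CPM in N2B27 and 153, 150.3 and 157 CPM in PXGL. Each library with inhibitor lay below every other library, whereas N2B27 and PXGL lay close together. SREBF1 fell 1.17-fold with EPZ-6438 (log2 fold change -0.23 ± 0.06, adjusted p = 0.0106) and did not differ detectably between N2B27 and PXGL (-0.10 ± 0.06, adjusted p = 0.175). Leaving out N2B27 replicate 3 (adjusted p = 0.0544) or EPZ replicate 3 (adjusted p = 0.0606) ended the call with EPZ-6438. Gene counts do not separate its isoforms.

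SREBF2, which encodes the factor that drives mainly sterol genes, had 245, 245 and 250.3 CPM with the inhibitor, 266, 264 and 257 CPM in N2B27 and 272, 308 and 306 CPM in PXGL. The groups were close, with PXGL highest and no overlap between any pair of groups. The difference with EPZ-6438 was -0.09 ± 0.06 (adjusted p = 0.326). N2B27 was 1.13-fold lower than PXGL (adjusted p = 0.0258), a call that ended in 7 of 16 other settings, with adjusted p up to 0.105. Against PXGL the inhibitor group was 1.2-fold lower (adjusted p = 0.00182).

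INSIG1, the SREBP-induced protein that retains SREBPs in the endoplasmic reticulum, had 75.01, 60.1 and 69.2 CPM with the inhibitor, 87.7, 84.03 and 80.7 CPM in N2B27 and 49.9, 46.5 and 46.9 CPM in PXGL. The groups stood in separate ranges, highest in N2B27 and lowest in PXGL. INSIG1 was 1.24-fold lower with EPZ-6438 (log2 fold change -0.31 ± 0.08, adjusted p = 0.0113), and 1.76-fold higher in N2B27 than in PXGL (adjusted p = 3.55e-07). Leaving out N2B27 replicate 1 (adjusted p = 0.0597) or EPZ replicate 2 (adjusted p = 0.0759) ended the first of these calls. STARD4, a carrier of cholesterol between membranes, had 109.5, 121 and 109 CPM with the inhibitor, 123, 129 and 126 CPM in N2B27 and 97.8, 100.5 and 101 CPM in PXGL. Its order was the same, and the smallest gap was between the inhibitor group and N2B27. The difference with EPZ-6438 did not pass the test (-0.15 ± 0.06, adjusted p = 0.0952), while N2B27 was 1.26-fold higher than PXGL (adjusted p = 0.000272).

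**Figure D4:**
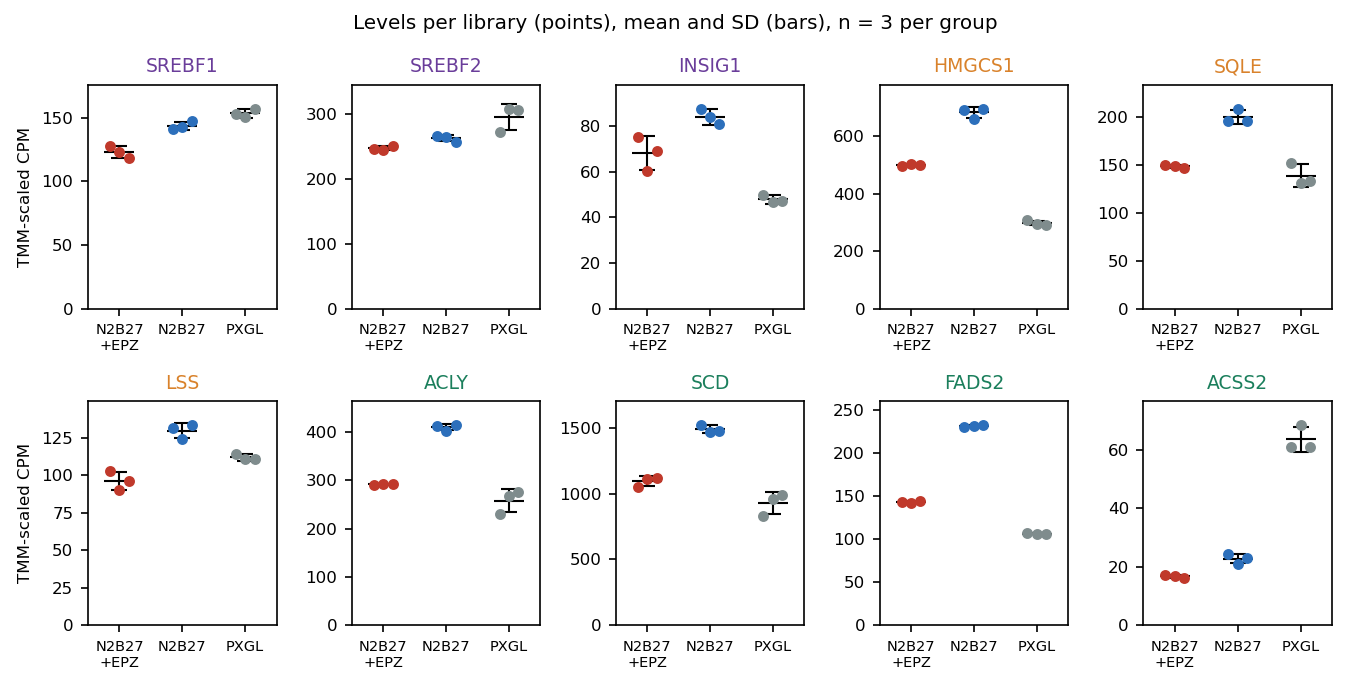
TMM-scaled CPM of 10 of the genes in each library (points), with the mean and SD of each culture group (bars, n = 3), on axes that start at 0 and differ between panels. HMGCS1, SQLE, ACLY, SCD and FADS2 are highest in N2B27, SREBF1 and SREBF2 vary little, and ACSS2 is highest in PXGL.

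In the sterol branch, 11 of 19 genes fell with EPZ-6438, with a median of -0.38 and a range of -0.59 to 0.23, against 10.6% of all tested genes called lower. They comprised 4 of 8 genes of the steps up to farnesyl diphosphate and 7 of 11 of the later steps. In N2B27 against PXGL, 11 of the 19 were higher and 1 was lower, against 27.3% and 28.7% of all tested genes, with a median of 0.31, or 0.41 without PXGL replicate 1. With EPZ-6438 against PXGL, 5 were higher and 8 lower, against 28.1% and 28% of all tested genes. The median there was -0.06, and it was -0.0098 without PXGL replicate 1 and -0.12 without PXGL replicate 3.

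At the entry to the pathway, HMGCS1, the cytosolic HMG-CoA synthase, had 498, 505 and 499.8 CPM with the inhibitor, 693, 661 and 697 CPM in N2B27 and 307, 296 and 292 CPM in PXGL. The 3 ranges were far apart relative to the spread within each group. HMGCS1 fell 1.37-fold with EPZ-6438 (log2 fold change -0.45 ± 0.06, adjusted p = 1.74e-05). N2B27 was 2.29-fold higher than PXGL (1.20 ± 0.06, adjusted p = 2.77e-11), the largest fold change of a sterol gene in that comparison. The inhibitor group was 1.68-fold higher than PXGL (adjusted p = 1.07e-08).

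AACS, which activates acetoacetate for lipid synthesis, had 54.3, 60.04 and 56.2 CPM with the inhibitor, 82.4, 81.8 and 86.1 CPM in N2B27 and 80.7, 89.4 and 84.3 CPM in PXGL. Levels with inhibitor lay below both other groups, which overlapped. AACS fell 1.47-fold with EPZ-6438 (-0.55 ± 0.07, adjusted p = 2.05e-05), and N2B27 differed from PXGL by -0.02 ± 0.07 (adjusted p = 0.788). ACAT2, the cytosolic thiolase of the first step, fell 1.36-fold with EPZ-6438 (adjusted p = 0.00292) and was 1.56-fold higher in N2B27 than in PXGL (adjusted p = 3.1e-05). On the opposite strand it shares 1141 exon bases with SOD2, whose mean was 89.0 to 119 CPM in the 3 groups, and 397 with TCP1, whose mean was 609.6 to 737 CPM. Strandedness is not given, so its counts can hold reads of both.

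The mevalonate-modifying enzymes MVK, PMVK and MVD were not called with EPZ-6438. MVK, mevalonate kinase, gave -0.24 ± 0.12 (adjusted p = 0.146), and MVD, mevalonate diphosphate decarboxylase, -0.31 ± 0.12 (adjusted p = 0.0683), which was called lower in 5 of 16 other settings, with adjusted p down to 0.00158. PMVK had 17.96, 21.3 and 20.9 CPM with the inhibitor, 16.6, 17.002 and 17.7 CPM in N2B27 and 29.8, 25.6 and 22.2 CPM in PXGL. Its lowest group was N2B27, 1.51-fold below PXGL (adjusted p = 0.000396). Without PXGL replicate 1 the signs of MVK and MVD between N2B27 and PXGL turned, neither being called.

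IDI1, the isopentenyl diphosphate isomerase, had 125, 122 and 126 CPM with the inhibitor, 153, 147 and 142 CPM in N2B27 and 99.7, 70.01 and 74.3 CPM in PXGL. PXGL was lowest, and its replicate 1 stood above replicates 2 and 3. The decrease with EPZ-6438 was not called (-0.25 ± 0.10, adjusted p = 0.0774), though the libraries did not overlap, and was called in 5 of 16 other settings, among them the fit of only the 2 groups compared (adjusted p = 1.06e-05). N2B27 was 1.81-fold higher than PXGL (adjusted p = 1.84e-06), and the inhibitor group 1.53-fold higher than PXGL (adjusted p = 6.87e-05). FDPS, which makes farnesyl diphosphate for sterols and for protein prenylation, had 95.3, 85.9 and 88.2 CPM with the inhibitor, 127, 121 and 124 CPM in N2B27 and 113, 92.6 and 93.7 CPM in PXGL. Its N2B27 values were the highest and those of the other groups overlapped. FDPS fell 1.38-fold with EPZ-6438 (-0.46 ± 0.08, adjusted p = 0.000353). Without PXGL replicate 1 the log2 fold change between N2B27 and PXGL was 1.03 for IDI1, against 0.86 with it.

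Squalene synthase, FDFT1, commits farnesyl diphosphate to sterols and had 248, 256 and 268 CPM with the inhibitor, 370.4, 345 and 334 CPM in N2B27 and 287, 269 and 249 CPM in PXGL. N2B27 was highest, and the inhibitor group overlapped PXGL. FDFT1 fell 1.36-fold with EPZ-6438 (-0.44 ± 0.07, adjusted p = 0.00012), and the inhibitor group differed from PXGL by -0.06 ± 0.07 (adjusted p = 0.47). SQLE, the epoxidase that oxidises squalene, had 150.2, 149 and 147 CPM with the inhibitor, 196, 209 and 196 CPM in N2B27 and 152, 131 and 133 CPM in PXGL. Again N2B27 was highest and the other groups overlapped. SQLE fell 1.35-fold with EPZ-6438 (-0.43 ± 0.07, adjusted p = 0.000147) and was 1.44-fold higher in N2B27 than in PXGL (adjusted p = 4.45e-06).

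LSS, which closes the sterol rings to give lanosterol, had 103, 90.3 and 96.3 CPM with the inhibitor, 132, 124 and 134 CPM in N2B27 and 114, 111 and 111 CPM in PXGL. Its order was N2B27, PXGL and the inhibitor group, with no overlap. LSS fell 1.35-fold with EPZ-6438 (-0.43 ± 0.07, adjusted p = 0.000134) and was 1.16-fold higher in N2B27 than in PXGL (adjusted p = 0.0107). CYP51A1, the lanosterol demethylase, had 124, 128 and 122 CPM with the inhibitor, 167, 171 and 160.1 CPM in N2B27 and 109, 87.7 and 81.1 CPM in PXGL. All PXGL libraries lay below the others. CYP51A1 fell 1.33-fold with EPZ-6438 (adjusted p = 0.002) and was 1.79-fold higher in N2B27 than in PXGL (adjusted p = 4.85e-07). Most of its exon sequence, 2844 bases, lies in the annotated gene AC000120.2 on the same strand, which is not among the gene rows.

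Of the later steps, TM7SF2, a sterol reductase, MSMO1, a methylsterol oxidase, and EBP, an isomerase, had their highest mean levels in PXGL. TM7SF2 had 7.71, 7.29 and 7.18 CPM with the inhibitor, 10.1, 10.5 and 12.7 CPM in N2B27 and 14.7, 12.4 and 14.6 CPM in PXGL. Inhibitor values were lowest, and PXGL overlapped N2B27. TM7SF2 fell 1.5-fold with EPZ-6438 (-0.59 ± 0.14, adjusted p = 0.00589) and was 1.88-fold lower than in PXGL (adjusted p = 3.23e-05), while N2B27 against PXGL gave -0.32 ± 0.13 (adjusted p = 0.0504). MSMO1 had 114, 114 and 103 CPM with the inhibitor, 128, 136 and 137 CPM in N2B27 and 159, 139 and 144 CPM in PXGL. The inhibitor group was lowest and PXGL highest. MSMO1 was 1.21-fold lower with EPZ-6438 than in N2B27 (adjusted p = 0.00836, and 0.0581 without EPZ replicate 3) and 1.34-fold lower than in PXGL (adjusted p = 8.26e-05). N2B27 against PXGL was not called for MSMO1 (-0.14, adjusted p = 0.0909) or for EBP (-0.20, adjusted p = 0.102). EBP was lower with EPZ-6438 than in PXGL (-0.36, adjusted p = 0.00689).

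SC5D, a sterol desaturase, and DHCR7, the reductase that yields cholesterol, were lowest in PXGL. SC5D had 64.8, 61.98 and 57.98 CPM with the inhibitor, 71.7, 64.6 and 64.03 CPM in N2B27 and 42.1, 37.3 and 41.1 CPM in PXGL. The N2B27 groups overlapped, and PXGL lay below both. SC5D gave -0.12 ± 0.08 with EPZ-6438 (adjusted p = 0.314) and was 1.66-fold higher in N2B27 than in PXGL (adjusted p = 8.99e-07). DHCR7 had 80.98, 78.99 and 82.2 CPM with the inhibitor, 103, 92.7 and 97.7 CPM in N2B27 and 66.7, 59.2 and 58.1 CPM in PXGL. Its groups stood in the order N2B27, inhibitor, PXGL without overlap. DHCR7 fell 1.21-fold with EPZ-6438 (adjusted p = 0.00939, and 0.0597 without N2B27 replicate 1) and was 1.6-fold higher in N2B27 than in PXGL (adjusted p = 7.39e-07). NSDHL and HSD17B7, which act in sterol demethylation, and the isomerase EBP were not called with EPZ-6438, with estimates of -0.20, -0.38 and -0.16. The HSD17B7 estimate was -0.20 without N2B27 replicate 1 and -0.51 without N2B27 replicate 3, where it was called (adjusted p = 0.0473). The pseudogene HSD17B7P2 had a count of its own of up to 14.5% of that of HSD17B7, and how reads were split between them is uncertain. Of the 11 members not called with EPZ-6438, 7 were called lower in at least 1 of 16 other settings.

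In the fatty acid branch, 7 of 8 genes fell with EPZ-6438, with a median of -0.45 and a range of -0.70 to -0.14, against 10.6% of all tested genes called lower. In N2B27 against PXGL, 7 were higher and 1 lower, against 27.3% and 28.7% of all tested genes, with a median of 0.58, or 0.53 without PXGL replicate 1. With EPZ-6438 against PXGL, 5 were higher and 2 lower, against 28.1% and 28% of all tested genes. The median there was 0.21, and it was 0.13 without PXGL replicate 1. ELOVL6 was the gene not called with EPZ-6438, and ACSS2 the one lower in N2B27 than in PXGL.

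ACLY, which splits cytosolic citrate into acetyl-CoA for both branches, had 291, 292 and 293 CPM with the inhibitor, 413, 403 and 415 CPM in N2B27 and 230.4, 268 and 275 CPM in PXGL. N2B27 lay well above the other groups. ACLY fell 1.41-fold with EPZ-6438 (-0.49 ± 0.07, adjusted p = 4.02e-05) and was 1.59-fold higher in N2B27 than in PXGL (adjusted p = 2.98e-07). ACSS2, which makes acetyl-CoA from acetate, had 17.1, 16.8 and 16.3 CPM with the inhibitor, 24.3, 21.01 and 23.1 CPM in N2B27 and 61.1, 68.6 and 61.3 CPM in PXGL. PXGL was far above both N2B27 groups, an order shared with none of the other 7 fatty acid genes. ACSS2 was 2.79-fold lower in N2B27 than in PXGL (-1.48 ± 0.09, adjusted p = 5.02e-10), 3.81-fold lower with EPZ-6438 than in PXGL (adjusted p = 2.58e-11) and 1.36-fold lower with EPZ-6438 than in N2B27 (adjusted p = 0.0023).

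ACACA, the carboxylase that makes malonyl-CoA, had 224, 259 and 232 CPM with the inhibitor, 318, 315 and 309 CPM in N2B27 and 169, 247 and 258 CPM in PXGL. PXGL replicate 1 was the lowest of the 9 libraries, and ACACA is the longest of the 31 genes, with 11020 exon bases. ACACA fell 1.32-fold with EPZ-6438 (-0.40 ± 0.12, adjusted p = 0.0286), a call that ended in 7 of 16 other settings, with adjusted p up to 0.109. FASN, the synthase that builds palmitate, had 611, 581 and 598 CPM with the inhibitor, 785, 773 and 795 CPM in N2B27 and 621, 702 and 726 CPM in PXGL. Its libraries with inhibitor were below all others. FASN fell 1.32-fold with EPZ-6438 (adjusted p = 0.000251) and was 1.15-fold higher in N2B27 than in PXGL (adjusted p = 0.0149), a call that ended with total count scaling (0.0729) or without N2B27 replicate 3 (0.0553).

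ELOVL6, the elongase that extends palmitate, had 149, 158 and 164 CPM with the inhibitor, 175, 169.7 and 175 CPM in N2B27 and 121, 126 and 126 CPM in PXGL. The inhibitor group lay between N2B27 and PXGL, nearer to N2B27. ELOVL6 gave -0.14 ± 0.06 with EPZ-6438 (adjusted p = 0.102) and was 1.39-fold higher in N2B27 than in PXGL (adjusted p = 4.46e-06). SCD, stearoyl-CoA desaturase, had 1053, 1116 and 1117 CPM with the inhibitor, 1524, 1468 and 1482 CPM in N2B27 and 832, 963 and 988 CPM in PXGL. All N2B27 libraries lay above the others. SCD fell 1.36-fold with EPZ-6438 (-0.45 ± 0.07, adjusted p = 0.000133) and was 1.61-fold higher in N2B27 than in PXGL (adjusted p = 3.08e-07).

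FADS1 and FADS2, the front-end desaturases of polyunsaturated fatty acids, overlap on opposite strands of chromosome 11 and share 490 exon bases. Strandedness is not given, so the counts of each can hold reads of the other there. FADS1 had 71.9, 74.01 and 77.6 CPM with the inhibitor, 110.1, 109.7 and 113 CPM in N2B27 and 53.8, 55.8 and 63.4 CPM in PXGL. FADS2 had 143, 142 and 144 CPM with the inhibitor, 230.2, 231 and 233 CPM in N2B27 and 107, 106 and 106 CPM in PXGL. Both were ordered N2B27, inhibitor, PXGL with no overlap, and the FADS2 libraries differed little within each group. FADS2 fell 1.62-fold with EPZ-6438 (-0.70 ± 0.06, adjusted p = 1.06e-07), the largest decrease among the 31 genes, and FADS1 1.49-fold (-0.57 ± 0.07, adjusted p = 1.8e-05). In N2B27 against PXGL, FADS2 was 2.18-fold higher (adjusted p = 4.6e-11) and FADS1 1.92-fold higher (adjusted p = 1.28e-08).

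The inhibitor group set against PXGL split the genes in both directions. FADS2 was 1.35-fold higher with EPZ-6438 than in PXGL (0.43 ± 0.06, adjusted p = 6.33e-06), FADS1 1.29-fold (adjusted p = 0.000415), ELOVL6 1.26-fold (adjusted p = 0.000165) and SC5D 1.53-fold (adjusted p = 6.36e-06). AACS was 1.49-fold lower (adjusted p = 2.9e-06). Of the regulators, SREBF1 was 1.25-fold lower (adjusted p = 0.000213), whereas INSIG1 was 1.42-fold higher (adjusted p = 6.37e-05) and STARD4 1.14-fold higher (adjusted p = 0.0211). The STARD4 call ended in 3 of 16 other settings, with adjusted p up to 0.121.

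The branches were also set side by side as summed levels, in which abundant genes weigh most. In N2B27 replicate 1, SCD had 1524 and FASN 785 CPM of the fatty acid sum, and HMGCS1 693 CPM of the sterol sum. The 8 fatty acid genes summed to 2559, 2639 and 2641 CPM with EPZ-6438, 3580, 3491 and 3544 CPM in N2B27, and 2195, 2536 and 2603 CPM in PXGL. The 19 sterol genes summed to 1928, 1919 and 1918 CPM with EPZ-6438, 2553, 2479 and 2504 CPM in N2B27, and 1880, 1655 and 1623 CPM in PXGL. Both sums were highest in N2B27 with no overlap with either other group, and PXGL replicate 1 was highest of its group for sterol genes and lowest for fatty acid genes. The ratio of the fatty acid to the sterol sum was 1.33, 1.37 and 1.38 with EPZ-6438 and 1.40, 1.41 and 1.42 in N2B27. These ranges did not overlap but lay close. In PXGL the ratio was 1.17 in replicate 1 and 1.53 and 1.60 in the others. Replicate 1, whose deviation followed transcript length, lay below every library of both N2B27 groups, and the other PXGL libraries lay above them.

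Other lipid genes were listed for comparison. With EPZ-6438 against N2B27, 10.6% of all tested genes were called lower and 14.2% higher. Nothing particular to the short lists in this paragraph is read from their counts. Of 4 genes that process SREBPs, SCAP, their escort protein, and INSIG2 were lower with EPZ-6438 than in N2B27 (log2 fold changes -0.24 ± 0.08, adjusted p = 0.0266, and -0.38 ± 0.13, adjusted p = 0.0402), and the proteases MBTPS1 and MBTPS2 were not called. The SCAP call ended in 4 and the INSIG2 call in 7 of 16 other settings. Of 6 genes of LXR signalling, sterol efflux and storage, 0 were lower with EPZ-6438 by edgeR and DESeq2 (1 at an unadjusted p under 0.05) and 1 was higher. That gene, SOAT1, which esterifies cholesterol for storage, had 19.04, 20.3 and 16.6 CPM with the inhibitor, 7.17, 6.60 and 11.1 CPM in N2B27 and 73.7, 72.7 and 74.8 CPM in PXGL. The groups did not overlap and PXGL was far highest. SOAT1 was 2.24-fold higher with EPZ-6438 than in N2B27 (1.16 ± 0.15, adjusted p = 2.35e-05) and 8.85-fold lower in N2B27 than in PXGL (adjusted p = 1.37e-11), opposite in sign to most of the synthesis genes in both comparisons. None of 5 lysosomal and uptake genes and none of 5 isoprenoid branch genes passed edgeR's test or that of DESeq2 with EPZ-6438. At an unadjusted p under 0.05 these were 0 uptake genes, and 1 higher and 1 lower isoprenoid gene.

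Among 12 tested genes of fatty acid extension and activation, 4 were lower and 1 higher with EPZ-6438, against 10.6% and 14.2% of all tested genes. HSD17B12, the ketoreductase of the elongation cycle, fell 1.37-fold (adjusted p = 9.98e-05), and ELOVL7, an elongase, rose 1.66-fold (adjusted p = 0.0448), a call that ended in 8 of 16 other settings. ELOVL7 is named, after its value was seen, as the one gene of the list in that direction. The other lower genes were TECR, ELOVL5 at -0.20 ± 0.06 (adjusted p = 0.0167) and ACSL4 at -0.25 ± 0.08 (adjusted p = 0.0216), and the ELOVL5 and ACSL4 calls ended in 3 and 7 of 16 other settings. In fatty acid oxidation, the opposing pathway, 4 of 8 genes were lower with EPZ-6438, against 10.6% of all tested genes, and 0 higher by edgeR and by DESeq2, with 5 lower and 0 higher at an unadjusted p under 0.05. CPT2, which imports fatty acids into mitochondria, fell 1.4-fold (adjusted p = 0.000755), the acyl-CoA dehydrogenase ACADM 1.34-fold (adjusted p = 0.000637) and HADHB, of the trifunctional protein, 1.26-fold (adjusted p = 0.00179). Of the same 8 genes, 5 were lower and 0 higher in N2B27 than in PXGL by edgeR (4 and 0 by DESeq2, 5 and 0 at an unadjusted p under 0.05), where ACADM was 1.46-fold lower (adjusted p = 9.63e-06). Over all tested genes 56% were called in this comparison, 28.7% lower.

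Counts called in the other lists between N2B27 and PXGL stand beside 56% of all tested genes called, 27.3% higher and 28.7% lower, and nothing particular to these short lists is read from them. Among SREBP processing genes 1 was higher and 3 were lower in N2B27, with INSIG2 1.63-fold lower (adjusted p = 0.000101). The efflux and storage list had 1 higher and 3 lower, among them the LXR gene NR1H2, 1.56-fold lower (adjusted p = 8.56e-06). Of the lysosomal and uptake genes 3 were higher and 1 lower, and VLDLR, a lipoprotein receptor, was 3.77-fold higher (adjusted p = 8.23e-10). The isoprenoid branch had 3 higher and 1 lower, with FNTB, a protein farnesyltransferase subunit, 1.53-fold higher (adjusted p = 1.24e-05). Fatty acid extension and activation had 4 higher and 6 lower; the smallest adjusted p was that of ACSL4, an acyl-CoA synthetase, 1.87-fold higher (adjusted p = 3.79e-08).

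**Figure D5:**
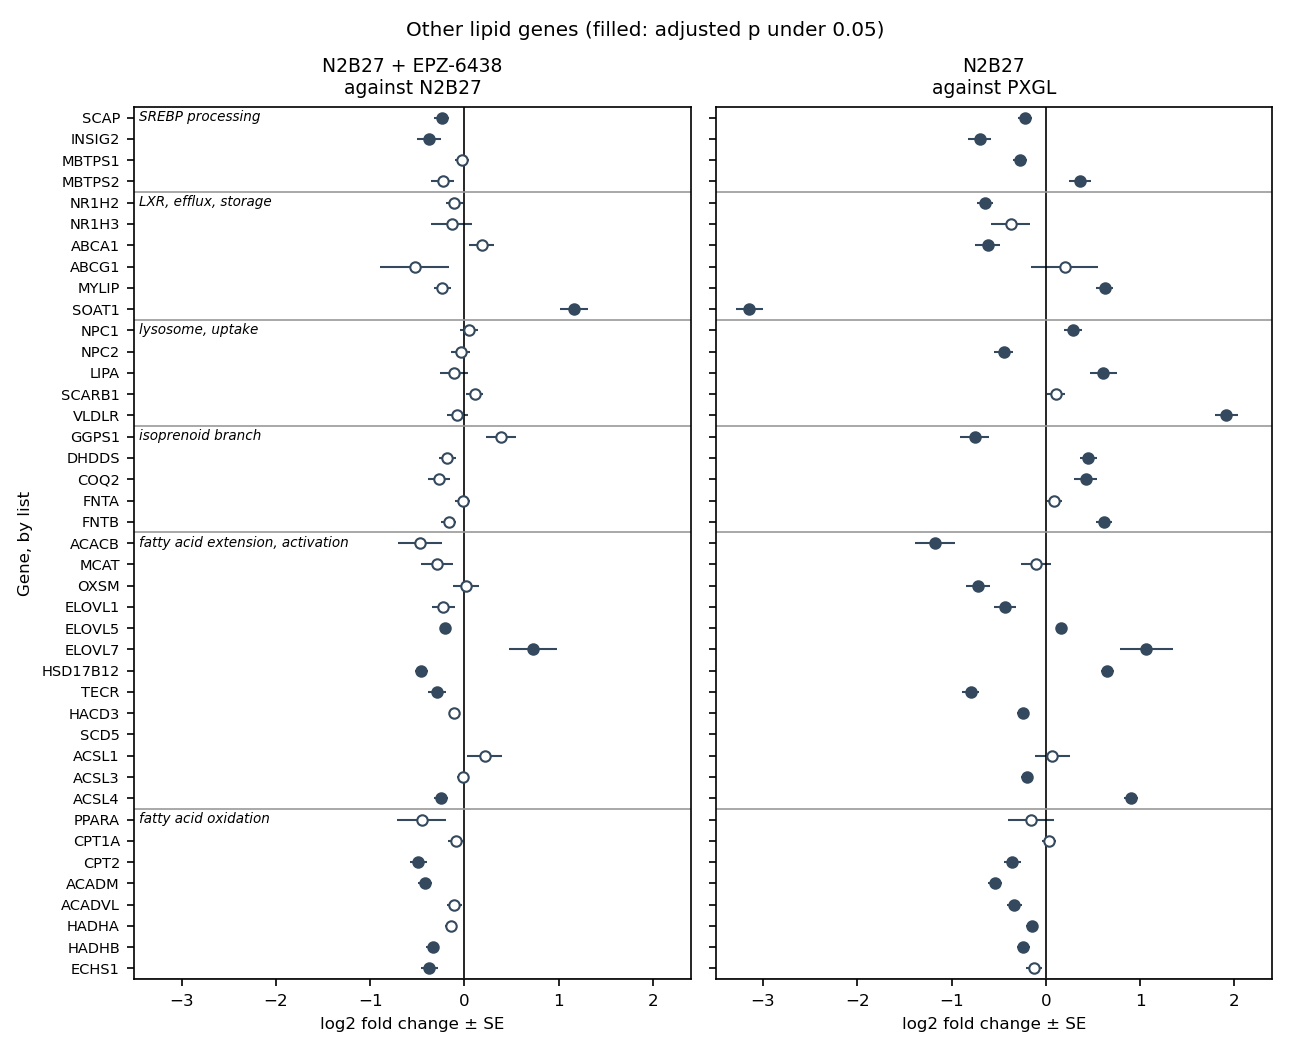
Log2 fold change with standard error of 41 other lipid genes by list, for EPZ-6438 against N2B27 and N2B27 against PXGL. Filled points have adjusted p under 0.05, SCD5 was not tested, and SOAT1 has the largest change in both panels, to the right in the first and to the left in the second.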

How the data were processed

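Expected counts, which are estimated reads per gene and can be fractional, were deposited in 1 table of 40332 gene symbols by 9 RNA-seq libraries. The tools named are STAR 2.7.6a, Trim Galore and DESeq2, with the hg38 build, per the submitters' processing notes; the sources used here do not give each tool's step, the counting program or strandedness. Per the labels' protocols, libraries followed ribosomal RNA depletion, whereas the molecule label names polyA RNA, which was not settled. The series text speaks of triplicate samples and duplicate sequencing, and the labels give 3 libraries per group.

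Counts were rounded. Genes were kept with filterByExpr (15179 of 22640 with a count) and fitted with edgeR 4.0.16 (TMM, robust quasi-likelihood test, 1 model of 3 groups, R 4.3.3), with Benjamini-Hochberg adjustment over all genes tested. The script was tested on simulated data. Alternatives were DESeq2 1.42.0 size factors and its Wald test, total count scaling, no filter, a filter of 1 CPM in 3 libraries, only the 2 groups compared, a replicate block and leaving out each library. The members and lists were chosen with earlier results of these data known. Values are given for the 4 regulators and, in each comparison, for the 6 sterol and 4 fatty acid genes with the smallest adjusted p; further members were added so that all 31 are accounted for. Of the other lists, up to 3 called genes of each with the smallest adjusted p could be named. Exon lengths and overlaps came from GENCODE 29 on GRCh38, in which all 31 symbols matched. No replicate pair agreed within sampling noise, so all 9 libraries were kept apart.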

Additional observations from a re-analysis of the deposited data

How the results depend on the processing

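Replicates share only a number: correlations of same-numbered deviations were -0.03 to 0.04. With the replicate block, 3694, 8507 and 8489 genes were called with EPZ-6438 against N2B27, N2B27 against PXGL and EPZ-6438 against PXGL, close to the 3752, 8505 and 8515 without it, and the sterol genes called lower with EPZ-6438 against N2B27 were 13 in place of 11. Fitting only the 2 groups compared gave 5641 genes for EPZ-6438 against N2B27, with 51.8% of them higher, against 57.3% in the fit of all libraries and 64.3% with total count scaling. The largest move of the median of all genes under another scaling was -0.052 on the log2 scale. With 1 library left out, the genes called ranged from 2762 to 5771 for EPZ-6438 against N2B27, the highest without PXGL replicate 1, 7663 to 9506 for N2B27 against PXGL and 7599 to 9452 for EPZ-6438 against PXGL. For EPZ-6438 against N2B27 the sterol genes called lower then numbered 10 to 15 and the fatty acid genes 6 to 8. For N2B27 against PXGL, sterol genes called higher numbered 10 to 12, sterol genes called lower 1 to 2 and fatty acid genes called higher 6 to 7. For EPZ-6438 against PXGL, sterol genes called higher numbered 5 to 7 and lower 7 to 9, and fatty acid genes called higher 4 to 5 and lower 1 to 2. The sterol genes lower in N2B27 than in PXGL, 1 in the fit of all libraries, were 4 with total count scaling and 2 with the stricter filter, and the fatty acid genes lower with EPZ-6438 than in PXGL, 2 in that fit, were 1 with only those 2 groups. The cause of these moves was not tested. Signs turned only for genes that were not called: with 1 library left out, AACS ranged from -0.0575 to 0.014, MVK from -0.19 to 0.021 and MVD from -0.18 to 0.10 in N2B27 against PXGL, and NSDHL from -0.062 to 0.15 and ACACA from -0.083 to 0.19 in EPZ-6438 against PXGL. NSDHL was -0.000255 there with total count scaling. Of the members called, 15 of 20, 20 of 23 and 18 of 24 passed in all 16 other settings in the 3 comparisons in the order above.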

Other observations

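The relation between transcript length and the deviation of PXGL replicate 1 was not limited to the lipid genes: over 14488 tested genes with an exon length the Spearman rho was -0.47. Among the 31 genes, the median log2 difference of this library from PXGL replicates 2 and 3 was 0.25 for the 10 shortest and -0.10 for the 10 longest. The log2 fold changes themselves had a rho with exon length of -0.131 with EPZ-6438 against N2B27, 0.32 for N2B27 against PXGL and 0.305 for EPZ-6438 against PXGL across the 31 genes, and 0.101, 0.0641 and 0.125 across the 14488. These are descriptions across genes, which are not independent replicates.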
